A study of Mus musculus with 8 samples.

Results

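The inhibitor of DNA binding genes Id1, Id2, Id3 and Id4 were followed across the cell classes of mouse embryonic cortex, in wild type tissue and in tissue given the active amino-terminal part of Sonic hedgehog. The members were taken by gene symbol: these are the 4 Id genes among the 27998 genes listed in both deposited matrices, and each symbol stands on 1 line. Cells came from cortex of CD1 mice at embryonic day 16.5 (E16.5). The WT group was wild type littermates. The ShhN-IUE group received a ShhN expression plasmid by in utero electroporation at E13.5, a method in which a current drives plasmid into some of the progenitors that line the ventricle. Which promoter drives the plasmid, and whether WT embryos received another one, is not stated in the labels. Cells of both groups were dissected under a fluorescence stereoscope, dissociated with papain and captured in droplets that give each RNA molecule a unique molecular identifier (UMI). Each group has 4 labelled samples, but the deposited matrix of each group carries a single barcode suffix and does not say which cell came from which sample, so each group is 1 library. No test between the groups and no replicate check was possible, and every interval below covers counting error only.

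Id proteins are helix-loop-helix proteins without the basic region that contacts DNA. They pair with E proteins (Tcf3, Tcf4 and Tcf12) and so keep these partners from forming active dimers with tissue-specific bHLH factors such as the proneural factor Neurog2. Bone morphogenetic proteins (BMPs) act through receptor kinases that phosphorylate SMAD1, SMAD5 and SMAD9, which enter the nucleus with SMAD4, and the Id genes, Id1 and Id3 above all, are among their best known direct targets. In the developing cortex Id1, Id3 and Id4 are known from ventricular zone progenitors and Id1 and Id3 from blood vessels, while Id2 is also known from cortical neurons.

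In the GENCODE annotation of GRCm38, Id1 lies at chr2:152736251-152737410 on the plus strand, Id2 at chr12:25093799-25097140 on the minus strand, Id3 at chr4:136143497-136145755 on the plus strand and Id4 at chr13:48261228-48266026 on the plus strand. The promoters are shown because the genes differ below in the cells that hold them. RefSeq (GRCm38.p6) gave the 250 bases before the start of 3 of the 4 genes, Id2, Id3 and Id4. Each window is counted from the RefSeq start, which differs from the outer bound of the GENCODE gene: the Id2 and Id3 windows lie within the GENCODE genes, and the Id4 window ends shortly before its gene. Capitals mark each match, on either strand, to GGCGCC or CAGAC, sequences known to be bound by SMADs, and to CCAAT, the sequence bound by NF-Y; no marked motifs overlap. The first window is chr12:25096093-25096342 on the minus strand, the next is chr4:136143572-136143821 on the plus strand, and the last is chr13:48260866-48261115 on the plus strand.
Id2: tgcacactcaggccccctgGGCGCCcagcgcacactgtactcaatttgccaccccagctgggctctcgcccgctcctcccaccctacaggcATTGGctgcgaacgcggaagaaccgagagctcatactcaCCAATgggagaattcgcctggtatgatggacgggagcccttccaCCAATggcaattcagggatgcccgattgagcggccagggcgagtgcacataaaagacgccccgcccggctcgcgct
Id3: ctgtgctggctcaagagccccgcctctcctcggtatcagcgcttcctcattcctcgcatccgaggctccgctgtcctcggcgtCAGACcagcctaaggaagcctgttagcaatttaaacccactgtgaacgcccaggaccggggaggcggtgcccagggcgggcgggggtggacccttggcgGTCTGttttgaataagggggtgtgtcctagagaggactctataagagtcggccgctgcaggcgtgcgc
Id4: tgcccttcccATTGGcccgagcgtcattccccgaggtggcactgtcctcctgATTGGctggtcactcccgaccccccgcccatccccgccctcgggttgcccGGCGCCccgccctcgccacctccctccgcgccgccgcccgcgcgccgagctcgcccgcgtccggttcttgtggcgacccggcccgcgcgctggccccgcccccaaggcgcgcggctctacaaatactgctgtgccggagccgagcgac
GGCGCC stands once in Id2, 231 to 226 bases before the start, and once in Id4, 148 to 143 bases before it. CAGAC stands in Id3 only among these windows, on the plus strand 167 to 163 bases before the start and on the minus strand 68 to 64 bases before it. CCAAT matches 3 times in Id2 and 2 times in Id4. Of 32851 promoter windows of this length, from 27025 genes, 9.59% hold GGCGCC, 42.2% CAGAC and 33.8% CCAAT. A match is a description of the letters and not a bound site.

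The WT library held 63760199 UMIs and 6924 cells after filters, with a median of 6279 UMIs per cell, and the ShhN-IUE library 69470062 UMIs and 8075 cells, with a median of 6683; 71 cell barcodes occurred in both. Clustering without the Id genes gave 30 clusters, of which 25 could be named from fixed marker lists and 5 could not. These names were rebuilt here, so each class is called "-like". Levels are CPM, the UMIs of a gene per 1000000 UMIs of a class, with 95% Poisson intervals, and the level of a gene in a pool of cells cannot tell more expressing cells from more RNA per cell. Barcodes with 1 to 50 UMIs, which hold free RNA and no cell, carried 800 CPM of Id2 in WT and 863 in ShhN-IUE. Each other Id gene lay between 7.55 and 16.1 CPM there. Id3 stood at 15.2 CPM in WT and 7.55 CPM in ShhN-IUE, from 16 and 9 UMIs. Id4 stood at 16.1 and 10.9 CPM and Id1 at 7.60 and 9.23 CPM. Free RNA was estimated from 6 neuron genes in the endothelial- and mural-like cells only, at 5.81% of their UMIs in WT and 2.72% in ShhN-IUE. The share in other classes was not estimated. Applied to every class, these shares come to 46.4 and 23.5 CPM of Id2 and at most 0.94 CPM of any other Id gene. Ptch1, a hedgehog target used as a check of the labels, stood at 9.75 CPM in WT and 104 CPM in ShhN-IUE radial glia-like cells.

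Id1 was mainly a progenitor gene in both libraries, and its vessel levels rest on few cells and UMIs. Radial glia-like cells, the ventricular zone stem cells that divide into neurons and their precursors, held 89.1 CPM in WT (interval 74.3 to 106) and 78.2 CPM in ShhN-IUE (65.8 to 92.2). Intermediate progenitor-like cells, which radial glia produce and which divide into neurons, held 23.9 CPM in WT (18.9 to 29.9) and 13.1 CPM in ShhN-IUE (10.6 to 16.0). Glial or olfactory bulb progenitor-like cells, defined by markers such as Olig2, Egfr and Gsx2, held 136 CPM in the 23 WT cells and 47.5 CPM in the 280 ShhN-IUE cells, but different clusters hold most of this class in each library. Cluster 26, led by Olig1, Olig2 and Pdgfra, held 17 of the WT and 54 of the ShhN-IUE cells, with 133 CPM of Id1 (interval 85.8 to 196) and 97.0 CPM (69.9 to 131), while clusters 15 and 24, with Gsx2 among their leading genes, held most ShhN-IUE cells, with 43.8 and 22.5 CPM there. In the excitatory neuron-like classes Id1 lay between 0.59 and 1.36 CPM. Free RNA was estimated to give 0.44 CPM of Id1 in WT, within the interval of each of these 3 classes, and 0.25 CPM in ShhN-IUE, below their intervals. Endothelial-like cells held 45.9 CPM in 17 WT cells (22.9 to 82.2) and 108 CPM in 14 ShhN-IUE cells (63.9 to 170). Of the 18 ShhN-IUE UMIs behind the latter, 11 lay in 1 cell. Mural-like cells, the pericytes of the vessel wall, held 30.1 and 42.9 CPM from 4 UMIs in each library. Among the classes with at least 30 cells, the intervals of radial glia-like and intermediate progenitor-like cells did not overlap with each other or with the next class in WT, while those from caudal eminence interneuron-like cells (4.17 CPM) down to the lowest class overlapped neighbour by neighbour. Of all Id1 UMIs in cells, radial glia-like cells held 42.8% in WT and 31.5% in ShhN-IUE.

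Id2 had the opposite distribution and was highest in neurons. WT deep layer neuron-like cells held 1253 CPM (interval 1228 to 1279), upper layer neuron-like cells 1153 CPM (1132 to 1174) and migrating neuron-like cells 919 CPM (898 to 940). The ShhN-IUE levels were 1073, 1064 and 965 CPM. Radial glia-like cells were lower, at 256 CPM in WT (230 to 283) and 254 CPM in ShhN-IUE (231 to 279), and intermediate progenitor-like cells lay between, at 356 and 364 CPM. The interneurons, which reach the cortex from the ventral eminences, held less Id2 than the excitatory neurons: 324 and 300 CPM in the caudal eminence interneuron-like class and 215 and 153 CPM in the medial eminence interneuron-like class. Among unnamed clusters, cluster 3, led by Asic2 and Ndrg1, had the highest WT level of any class, 1320 CPM, and cluster 8, led by Sln and Slc4a4, the highest ShhN-IUE level, 1230 CPM. Cluster 13, led by Tac2 and Lhx9, held 480 and 570 CPM, Cajal-Retzius-like cells 147 and 250 CPM, and glial or olfactory bulb progenitor-like cells 193 and 159 CPM. Every neural class was thus above the Id2 estimated for free RNA. So were erythroid-like cells, which are not neural and lay above the Cajal-Retzius-like level in each library. They held 171 CPM in 20 WT cells (131 to 221) and 385 CPM in 13 ShhN-IUE cells (306 to 478). The source of their Id2 was not tested. Excitatory neuron-like classes and the unnamed neuron clusters held 94.1% of Id2 UMIs in WT and 90.8% in ShhN-IUE. In endothelial-like cells the 29.2 CPM of WT (interval 11.8 to 60.2) included the level that free RNA gives, while the 114 CPM of ShhN-IUE (68.5 to 178) did not, from 19 UMIs of which 11 lay in 1 cell.

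Id3 was found in vessels, radial glia and interneurons. Mural-like cells held 444 CPM in WT (interval 338 to 572, 25 cells) and 279 CPM in ShhN-IUE (182 to 409, 15 cells). Endothelial-like cells held 284 CPM (220 to 360) and 264 CPM (191 to 354). Among the named neural classes radial glia-like cells were highest, with 121 CPM in WT (104 to 141) and 77.6 CPM in ShhN-IUE (65.2 to 91.6), followed by medial eminence interneuron-like cells with 62.7 CPM in WT (52.9 to 73.8) and 16.7 CPM in ShhN-IUE (9.74 to 26.8). The vascular classes carried their defining markers: all 12 endothelial markers were detected in endothelial-like cells and all 10 mural markers in mural-like cells, in both libraries. An unnamed cluster led by the neutrophil genes S100a8 and S100a9 also held Id3, at 100.5 CPM in 11 WT cells (interval 48.2 to 185) and 187 CPM in 17 ShhN-IUE cells (138 to 249), the latter above the radial glia-like class. Lower levels were found in glial or olfactory bulb progenitor-like cells (44.1 CPM in WT and 10.5 CPM in ShhN-IUE, but 58.3 and 43.9 CPM within cluster 26, with overlapping intervals), caudal eminence interneuron-like cells (13.9 and 1.38 CPM) and intermediate progenitor-like cells (4.60 and 0.94 CPM). All excitatory neuron-like classes lay below 2 CPM, and erythroid-like cells had 0 Id3 UMIs in both libraries. The WT library held 550 Id3 UMIs in cells, of which 31.6% were in radial glia-like cells, 26.2% in medial eminence interneuron-like cells and 23.1% in the endothelial- and mural-like classes together. The 338 ShhN-IUE UMIs divided into 41.1%, 5.03% and 20.7%.

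Id4 was highest in radial glia-like cells, at 152 CPM in WT (interval 132 to 173) and 123 CPM in ShhN-IUE (107 to 140). Cajal-Retzius-like cells, the reelin-producing neurons of the cortical surface, held 43.3 CPM in WT (29.2 to 61.9, 70 cells) and 27.0 CPM in ShhN-IUE (11.6 to 53.2, 30 cells). Caudal eminence interneuron-like cells held 27.8 CPM (17.0 to 42.9) and 58.1 CPM (41.9 to 78.6). ShhN-IUE cells with Dlx genes but no interneuron subtype held 49.1 CPM, and 4 such cells were found in WT. Intermediate progenitor-like cells held 14.7 and 8.82 CPM and glial or olfactory bulb progenitor-like cells 8.03 and 10.1 CPM. The level was lower along the excitatory lineage, with 2.25 and 1.57 CPM in upper layer neuron-like and 2.91 and 3.34 CPM in deep layer neuron-like cells. In WT the radial glia-like interval stood clear of the next class, and the neighbours below it, from Cajal-Retzius-like cells down, overlapped. The vessel classes, high in Id3, held little or no Id4: mural-like cells had 0 Id4 UMIs in both libraries, which allows up to 27.7 CPM in WT and 39.6 CPM in ShhN-IUE, and endothelial-like cells 3 and 0 UMIs. Medial eminence interneuron-like cells held 4 Id4 UMIs in 601 WT cells and 3 in 239 ShhN-IUE cells.

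**Figure D1:**
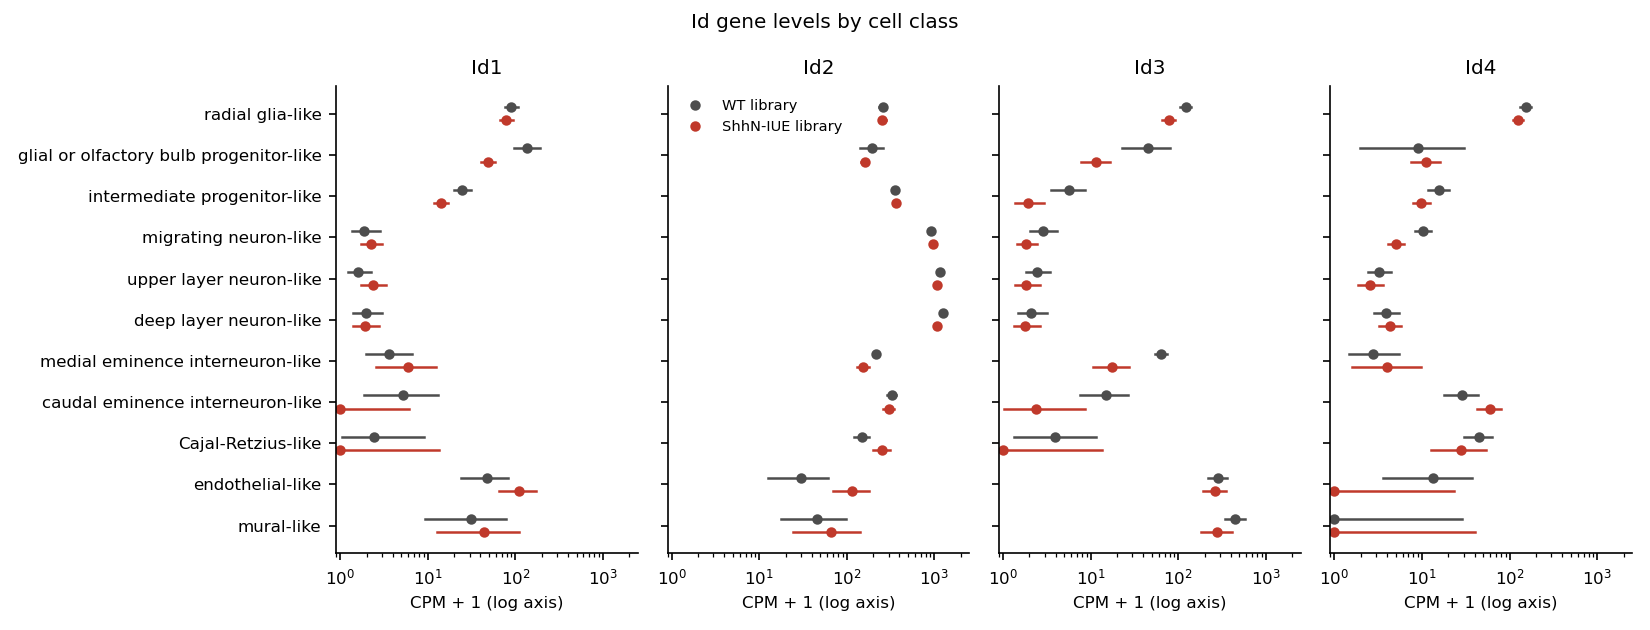
Levels of the 4 Id genes by marker-named class, as CPM + 1 on a log axis, with 1 point per library and bars for 95% Poisson intervals. Id2 is highest in the excitatory neuron-like classes, at 919 to 1253 CPM in WT, while the highest Id3 levels, 279 to 444 CPM, are in mural-like cells.

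Over the 26 class and library profiles with at least 30 cells, from 14 classes, log2(CPM + 10) of Id1 ran with Id3 (Pearson r = 0.73) and Id4 (r = 0.65), and Id3 with Id4 (r = 0.55). Id2 ran against all 3 others, with r of -0.51 for Id1, -0.53 for Id3 and -0.61 for Id4. These are descriptions: profiles of a library share its cells' depth and free RNA, and vascular classes were too small to enter. Among 10501 genes with at least 200 UMIs, the profiles most like Id1 were those of Zfp36l1 (r = 0.98), Gpx8, Hes5, E2f5 and Ttc23. Those most like Id2 were Aff3 (r = 0.91), Fam49a, Neurod6, Neurod2 and Herc3, of which Neurod6 and Neurod2 are bHLH factors of excitatory neurons. Those most like Id3 were Tmem132b (r = 0.91), Nacc2, Rest, Etl4 and Ddah1, and those most like Id4 were Zfp395 (r = 0.89), Cst3, Ikbip, Slc39a1 and Mpv17. With 1 CPM added in place of 10, 4 of the 5 names stayed for Id2, 3 for Id3, 2 for Id1 and 1 for Id4.

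Single radial glia-like cells rarely showed the whole family. Each cell was thinned to 4500 UMIs, leaving 149 WT and 203 ShhN-IUE cells, with 25 and 46 shallower cells left out. No Id gene was seen in 20.1% of WT and 24.1% of ShhN-IUE cells, 1 in 32.9% and 35.5%, 2 in 30.2% and 28.1%, 3 in 14.1% and 9.85%, and all 4 in 2.68% and 2.46%. Id1 was seen in 22.8% of WT cells (Clopper-Pearson interval 16.3 to 30.4) and 22.7% of ShhN-IUE cells (17.1 to 29.0). Id4 was seen in 44.3% and 37.9%, with overlapping intervals, and Id2 in 57.7% and 60.6%. Id3 was seen in 21.5% of WT cells (15.2 to 28.9) and 9.85% of ShhN-IUE cells (6.12 to 14.8), and these intervals do not overlap. Without thinning, the Id3 shares were 28.2% and 14.9%, at median depths of 7023 and 6294 UMIs; migrating neuron-like cells, in which Id3 lay below 2 CPM, showed an Id3 UMI in 0.94% of WT cells at a median of 5051 UMIs and 0.50% of ShhN-IUE cells at 5714. All 6 pairs of Id genes fell in the same thinned WT cell slightly more often than the product of their shares, for example 16.8% against 13.2% for Id1 with Id2 and 12.1% against 9.51% for Id3 with Id4.

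In radial glia-like cells none of the 4 Id genes passed the rule of size used for the comparison of the libraries. That rule asked for 50 or more UMIs in the 2 libraries together, a ShhN-IUE over WT ratio of at least 1 in size on the log2 scale, and the nearer bound of its 95% interval at 0.5 or beyond; it was applied where a class had at least 100 cells in each library, and 73 of 6761 genes (1.08%) passed it in radial glia-like cells in either direction. Id1 gave 128 UMIs in WT and 140 in ShhN-IUE and a log2 ratio of -0.19 (interval -0.55 to 0.17). Id2 gave 367 and 455 UMIs and a log2 ratio of -0.01 (-0.21 to 0.19). These intervals include 0 and exclude changes of the size the rule asked for. Id4, with 218 and 220 UMIs, had a log2 ratio of -0.31 (-0.58 to -0.03). Id3, with 174 and 139 UMIs, had the most negative value of the family, -0.64 (-0.97 to -0.31). Counting radial glia-like cells by their markers, with no clustering, gave 205 and 474 cells and an Id3 log2 ratio of -1.70, which passed the rule.

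**Figure D2:**
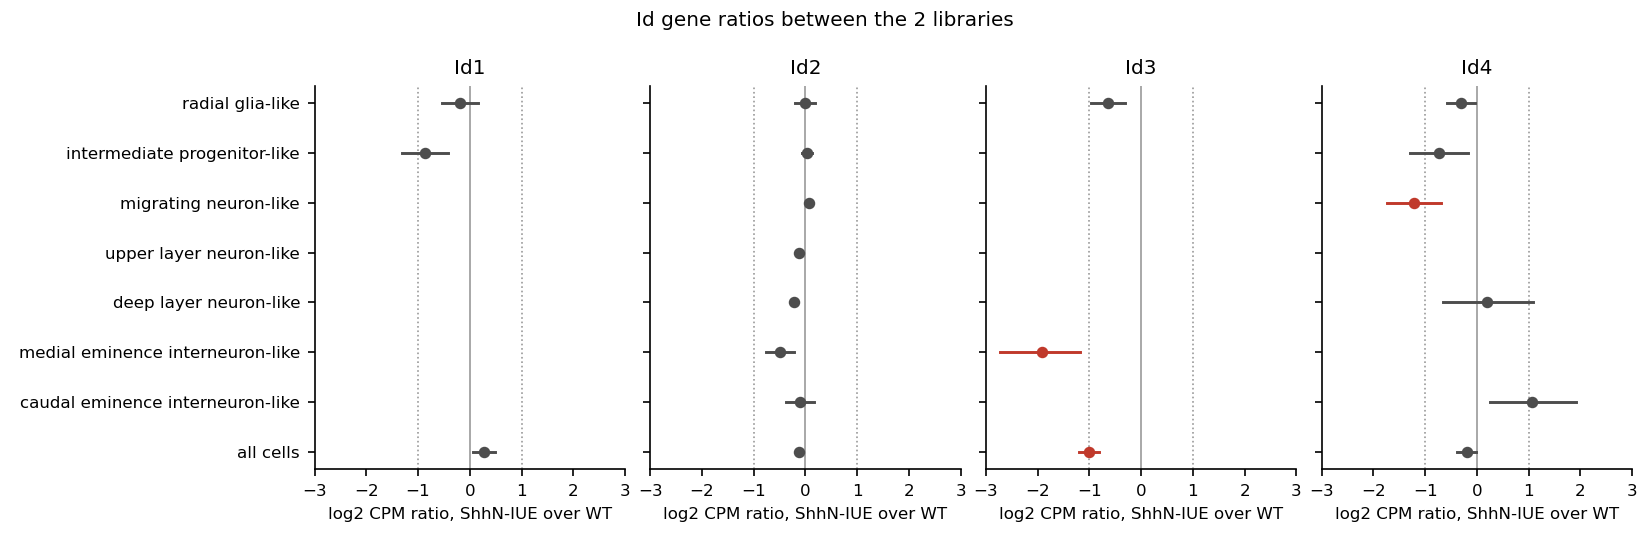
Log2 ratio of ShhN-IUE over WT of each Id gene in each class and in all cells, with 95% counting intervals; red points pass the rule of size, dotted lines stand at a ratio of 1 and -1, and genes with under 50 UMIs are not drawn. Id3 in medial eminence interneuron-like cells (-1.91) and in all cells (-1.01) and Id4 in migrating neuron-like cells (-1.21) pass it on the lower side.

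Within the radial glia-like cells Id3 sat in few cells. At least 5 Id3 UMIs were found in 12 of 174 WT cells, which held 62.6% of the Id3 UMIs of the class, and in 6 of 249 ShhN-IUE cells, which held 60.4%; this limit of 5 was chosen after the values were seen. The tenth of cells with the most Id3 held 74.1% of its UMIs in WT and 91.4% in ShhN-IUE, against 64.8% and 65.0% for Id1, 44.1% and 35.4% for Id2 and 39.9% and 40.9% for Id4. The highest single cells carried 22 and 33 Id3 UMIs. They held few vessel transcripts: the 12 WT cells held 0 to 3 UMIs each of 29 endothelial, mural and fibroblast markers and the 6 ShhN-IUE cells 0 to 1, beside 82 to 428 and 99 to 341 UMIs of radial glia markers. They were deeper than the other radial glia-like cells, with median UMIs of 10528 against 6839 in WT and 8720 against 6231 in ShhN-IUE.

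Some of the Id3-rich cells also held RNA of genes of the medial wall of the cortex. Wnt8b, a Wnt ligand of the hippocampal primordium, stood at 118 CPM in the 12 WT cells and 6.23 CPM in the other 162, and at 99.9 and 2.30 CPM in ShhN-IUE, from 4 of the 12 WT cells and 1 of the 6 ShhN-IUE cells. Zic1, a zinc finger factor of the dorsal midline, stood at 91.8 against 17.1 CPM in WT and 99.9 against 12.6 CPM in ShhN-IUE, from 5 of the 12 and 3 of the 6 cells. Rspo3, which strengthens Wnt signals, stood at 78.7 against 4.67 CPM and 140 against 1.15 CPM, from 2 of the 12 cells and 1 of the 6. Other medial wall genes rested on few UMIs. Wnt5a stood at 13.1 against 10.1 CPM in WT and at 40.0 against 6.32 CPM in ShhN-IUE, with 2 UMIs in the Id3-rich cells of each library and overlapping intervals. Rspo1 had 7 UMIs in 1 Id3-rich WT cell, and Wnt3a, Wnt2b, Rspo1 and Lmx1a had 0 UMIs in the 6 ShhN-IUE cells. Id1 was higher in the same cells, at 210 against 74.8 CPM in WT and 260 against 73.0 CPM in ShhN-IUE. The higher Id1 values rested on 5 of the 12 WT cells and 5 of the 6 ShhN-IUE cells. Hes5, a Notch target of radial glia, was also higher, at 393 against 134 CPM and 680 against 184 CPM. Id2, Id4, Hes1 and Pax6 lay higher too in both libraries, with overlapping intervals in WT. In ShhN-IUE the intervals of Id2 (500 against 247 CPM), Id4 (280 against 118 CPM) and Hes1 (620 against 213 CPM) did not overlap. The Pax6 intervals overlapped there as well.

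A list of 10 medial wall genes was written after these values were seen, so its counts are descriptions. At least 1 UMI of the list was found in 37 WT radial glia-like cells (21.3%) and 28 ShhN-IUE cells (11.2%), and the list summed to 82.2 CPM in WT and 39.6 CPM in ShhN-IUE. Id3 stood at 226 CPM in WT and 182 CPM in ShhN-IUE cells with such a UMI, and at 80.4 and 58.2 CPM in those without. The log2 ratio of Id3 was -0.31 with such a UMI (interval -0.83 to 0.20) and -0.46 without (-0.91 to -0.01), against -0.64 in the whole class. The share of cells with a medial wall UMI and the Id3 level of the class were thus both lower in ShhN-IUE, and the part of that share in the result was not tested. Erythroid markers in radial glia-like cells also differed, at 14857 CPM in WT and 4650 CPM in ShhN-IUE, as did the endothelial list (36.2 and 18.4 CPM) and the mural list (34.1 and 12.3 CPM), with 6 to 8 of 12 endothelial and 4 to 5 of 10 mural markers at 0; their part in the result was not tested.

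**Figure D3:**
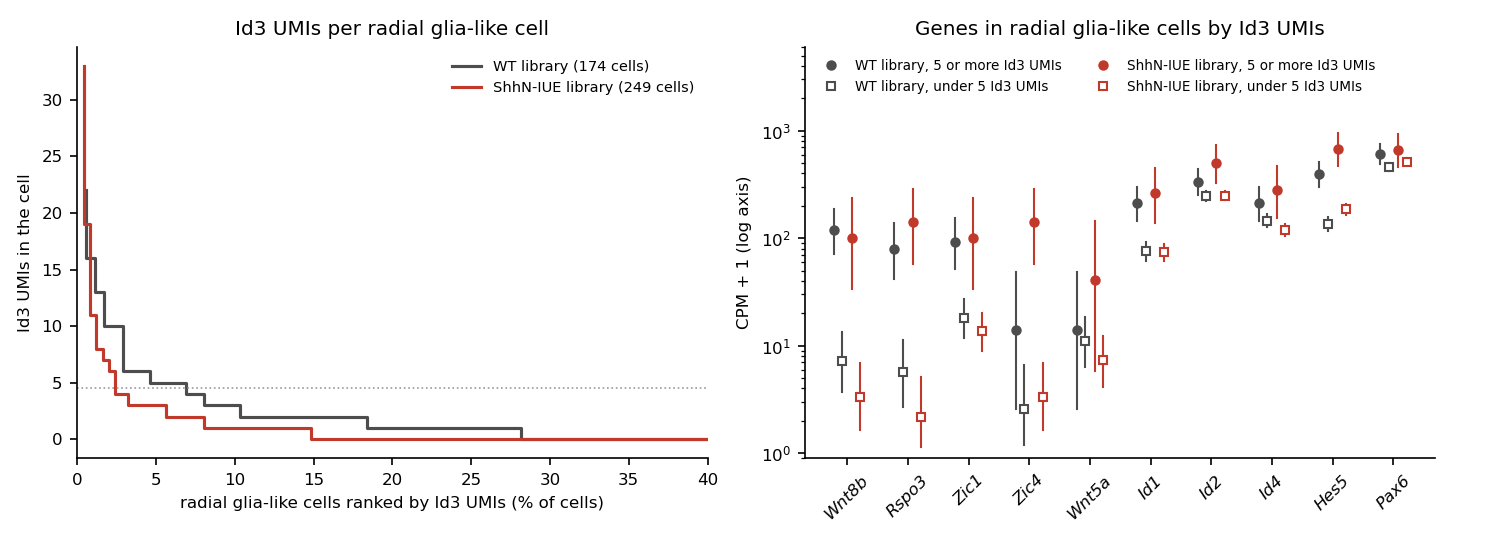
Id3 UMIs per radial glia-like cell, with cells ranked from high to low and a dotted line under 5, and levels of medial wall, Id and radial glia genes as CPM + 1 on a log axis, with 95% Poisson intervals, in cells with at least 5 Id3 UMIs and in the others, by library. The 12 WT and 6 ShhN-IUE cells at the top hold 62.6% and 60.4% of the Id3 UMIs of the class.

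Dividing and other radial glia-like cells were set side by side in the thinned cells. WT Id3 stood at 166 CPM in 55 dividing cells (interval 119 to 225) and 85.1 CPM in 94 others (59.6 to 118), and ShhN-IUE Id3 at 64.7 and 59.1 CPM in 79 and 124 cells. The WT intervals do not overlap, by a narrow margin, and those of ShhN-IUE do, but an Id3 UMI was found in like shares of WT cells, 21.8% of dividing (12 of 55) and 21.3% of other cells (20 of 94). Id1 stood at 76.8 and 106 CPM in WT, and in ShhN-IUE it was higher in the dividing cells (32 UMIs in 79 cells) than in the others (32 UMIs in 124 cells), with overlapping intervals in each library. Id4 stood at 158 and 149 CPM in WT and 135 and 106 CPM in ShhN-IUE, also overlapping. Id2 stood at 299 and 251 CPM in WT, with overlapping intervals. In ShhN-IUE it stood at 366 CPM in dividing cells (306 to 434) and 219 CPM in the others (182 to 261), which do not overlap. The shares of ShhN-IUE cells with an Id2 UMI, 67.1% and 56.5%, had overlapping intervals.

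Among the classes, Id3 passed the rule of size only in medial eminence interneuron-like cells, the Lhx6 and Sst lineage of inhibitory neurons. Their Id3 level was 62.7 CPM in WT, from 144 UMIs in 601 cells, and 16.7 CPM in ShhN-IUE, from 17 UMIs in 239 cells. The log2 ratio was -1.91 (interval -2.73 to -1.18), and Id3 was 1 of 16 genes that passed the rule on the lower side among 6394 (0.25%). An Id3 UMI was found in 110 WT cells, 18.3% (15.3 to 21.6), and 14 ShhN-IUE cells, 5.86% (3.24 to 9.63), at median depths of 3629 and 4007 UMIs. Thinned to 4500 UMIs, the shares were 13.8% (12 of 87 cells, interval 7.34 to 22.9) and 1.43% (1 of 70 cells, 0.04 to 7.70), which overlap; 514 WT and 169 ShhN-IUE cells were too shallow to enter. The WT cells, with the larger share, were the shallower ones. Id2 in the same cells had a log2 ratio of -0.49 (-0.76 to -0.23), which did not pass the rule, and Id1 and Id4 had too few UMIs to compare. Vascular markers in these cells summed to 7.41 CPM endothelial and 1.74 CPM mural in WT and 2.95 and 1.97 CPM in ShhN-IUE, with 8 of 12 and 6 of 10 markers at 0 in WT. In caudal eminence interneuron-like cells, the Htr3a and Prox1 lineage, Id3 gave 10 UMIs in 181 WT cells and 1 in 144 ShhN-IUE cells, too few for the rule. The log2 ratio there was -3.33 (interval -8.77 to -0.51). In intermediate progenitor-like cells, with 15 and 7 UMIs, it was -2.30 (-3.83 to -0.92). Id3 was lower in ShhN-IUE in every other class with at least 100 cells in each library as well. All of these but radial glia-like cells had under 50 Id3 UMIs.

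Interneurons with Id3 held less Sst, the somatostatin neuropeptide gene. WT cells with an Id3 UMI held 225 CPM of Sst (interval 181 to 276) and those without 848 CPM (807 to 891); in ShhN-IUE the levels were 264 and 1231 CPM. Npy, the neuropeptide Y gene, stood at 154 against 337 CPM in WT, and at 82.4 against 441 CPM in ShhN-IUE. The lineage factors Lhx6, at 445 against 418 CPM, and Maf, at 938 against 786 CPM, were not lower in WT cells with Id3. Read the other way, an Id3 UMI was found in 9.95% of 221 WT cells with Sst and 23.2% of 380 without, and in 2.70% of 111 and 8.59% of 128 ShhN-IUE cells. Sst in the whole class differed between the libraries, at 737 CPM in WT and 1174 CPM in ShhN-IUE. The Id3 ratio was negative on both sides of the split, -2.39 in cells with Sst (interval -4.75 to -0.69) and -1.57 in cells without (-2.48 to -0.76).

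**Figure D4:**
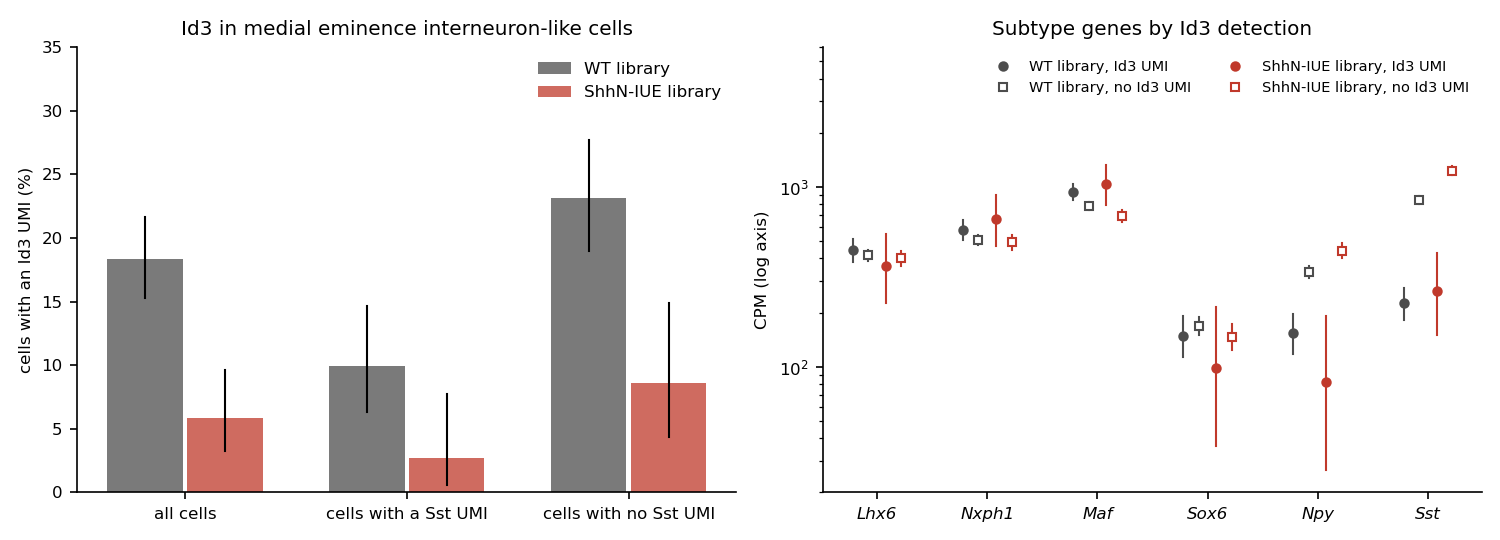
Share of medial eminence interneuron-like cells with an Id3 UMI, by library and by Sst detection, in percent with 95% Clopper-Pearson intervals, and levels of lineage genes in CPM on a log axis in cells with and without Id3. Id3 is seen in 23.2% of WT cells without Sst and in 2.70% of ShhN-IUE cells with it.

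Id4 in migrating neuron-like cells, young excitatory neurons on their way to the cortical plate, was also lower in ShhN-IUE. WT held 74 UMIs in 1491 cells, 9.32 CPM (interval 7.32 to 11.7), and ShhN-IUE 58 in 2402 cells, 4.02 CPM (3.05 to 5.19). The log2 ratio was -1.21 (-1.74 to -0.70), where 0.913% of 10186 genes passed the rule on the lower side. The class was made of 3 clusters, and cluster 4, led by Tfap2d and Gcg, held 117 of the WT cells and 880 of the ShhN-IUE cells. Id4 stood at 22.1 and 3.34 CPM in that cluster, at 6.35 and 3.39 CPM in cluster 0 and at 10.0 and 6.65 CPM in cluster 2, with log2 ratios of -2.73 (-3.86 to -1.57), -0.90 (-1.83 to 0.02) and -0.59 (-1.47 to 0.23). The interval excluded 0 in cluster 4 only. Without cluster 4 the log2 ratio was -0.92 and no longer passed the rule. It passed in 3 of 10 processing alternatives, with values from -1.22 to -0.78.

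Id1 in intermediate progenitor-like cells was lower in ShhN-IUE, at a log2 ratio of -0.87 (interval -1.31 to -0.42) that did not pass the rule, in a class where 4.99% of 9299 genes passed it in either direction. The clusters of this class differed. In cluster 10 Id1 stood at 37.8 CPM in 84 WT cells and 7.86 CPM in 440 ShhN-IUE cells, in cluster 12 at 46.6 CPM in 72 and 15.5 CPM in 424 cells, and in cluster 11 at 13.4 CPM in 342 and 17.9 CPM in 168 cells. Clusters 10 and 12, led by genes of DNA replication and mitosis, thus held most ShhN-IUE cells. Their log2 ratios were -2.27 (-3.21 to -1.32), from 21 and 21 UMIs, and -1.59 (-2.25 to -0.89), from 29 and 59 UMIs. Both had under 100 WT cells, so the rule was not applied to them. Cluster 11, led by Neurod4 and Btbd17, held most WT cells. Its log2 ratio was 0.42, from 28 and 18 UMIs, and the interval (-0.52 to 1.32) includes 0. Clusters 10 and 11 each had under 50 Id1 UMIs in the 2 libraries together. The ratio of the class was negative in 9 of 10 processing alternatives and reached 0.17 in the other. Id4 in caudal eminence interneuron-like cells went the other way, with 20 UMIs in WT and 42 in ShhN-IUE and a log2 ratio of 1.07 (0.26 to 1.91), not past the rule, in a class where 8.21% of 4043 genes passed it. Its sign depended on the clustering: 2 of 9 alternatives gave a negative value, and the range ran from -1.03 to 2.37.

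Id2 in the excitatory neurons differed little. The log2 ratio was -0.22 (interval -0.27 to -0.18) in deep layer neuron-like cells, -0.12 in upper layer neuron-like cells and 0.07 (0.03 to 0.11) in migrating neuron-like cells. Id2 gave between 7298 and 13933 UMIs per class and library, so these intervals are narrow, and all 3 values were far from the size the rule asks for. Id4 in deep layer neuron-like cells, with 21 and 29 UMIs, gave 0.20 (-0.66 to 1.08).

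Over all cells Id3 had 550 UMIs in WT and 338 in ShhN-IUE, 11.8 and 5.90 CPM. The log2 ratio was -1.01 (interval -1.20 to -0.81), on the edge of the rule, which 1.86% of 13032 genes passed on the lower side. Medial eminence interneuron-like cells were 8.68% of WT and 2.96% of ShhN-IUE cells, and without them the log2 ratio was -0.69 (-0.90 to -0.47). Over all cells the log2 ratio was 0.27 for Id1, -0.13 for Id2 and -0.19 for Id4, none past the rule. The classes that held the Id1 UMIs differed: glial or olfactory bulb progenitor-like cells held 11.4% of them in WT and 25.5% in ShhN-IUE.

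The BMP pathway around the Id genes was thinly measured in radial glia-like cells. None of 11 BMP ligands had 50 UMIs there. Of 8 receptors 3 were measured, and 0 passed the rule in either direction, with a median log2 ratio of -0.36 against -0.01 for all measured genes. Bmpr1a, a type I receptor, stood at 52.9 CPM in WT and 37.4 CPM in ShhN-IUE, a log2 ratio of -0.50, and Bmpr2, the type II receptor, at 48.7 and 38.0 CPM. Of 4 SMADs 3 were measured, with a median of -0.02 and 0 past the rule: Smad1 stood at 45.9 and 45.2 CPM and Smad5 at 59.2 and 54.7 CPM. Of 12 inhibitors of the pathway 5 were measured, with a median of 0.22 and 0 past the rule. Of 6 other targets 2 were measured: Hey1, a Hes-related repressor, had a log2 ratio of -0.32, and Hes1, which is also a Notch target and represses proneural genes, 0.83 (0.58 to 1.09), not past the rule. Over all cells 1 of 5 measured ligands, Gdf5, passed on the lower side, with 83 UMIs in WT and 27 in ShhN-IUE. Its log2 ratio was -1.92. Of all 13032 genes measured over all cells, 1.86% passed on that side.

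The partners of the Id proteins were better measured. All 3 E protein genes were measured in radial glia-like cells and 0 passed, with a median of -0.07; Tcf4 stood at 1596 CPM in WT and 1081 CPM in ShhN-IUE, a log2 ratio of -0.56 (interval -0.65 to -0.47). Of 13 tissue bHLH genes 7 were measured, 1 was higher past the rule and 0 lower, with a median of -0.26. The gene that rose was Olig2, a factor of oligodendrocyte and ventral progenitors, with a log2 ratio of 1.68. Of all 6761 genes measured in radial glia-like cells, 39 were higher and 34 lower past the rule. Neurog2, the proneural factor of excitatory lineages, had -0.79, and Hes5 had 0.30. In intermediate progenitor-like cells Hes1 rose from 3.99 to 53.5 CPM, a log2 ratio of 3.74, and Neurod4, a late proneural factor, was lower over the class, at 55.5 CPM in WT and 25.1 CPM in ShhN-IUE, with a log2 ratio of -1.14. Neurod4 is the leading gene of cluster 11. That cluster held 342 of the 498 WT cells and 168 of the 1032 ShhN-IUE cells of this class. Of all 9299 genes measured in intermediate progenitor-like cells, 4.99% passed the rule in either direction. In caudal eminence interneuron-like cells Tcf3 was higher past the rule, at 61.1 CPM in WT and 144 CPM in ShhN-IUE. The 3 E protein genes there had a median of -0.57, against -0.04 for all measured genes. Of 13 tissue bHLH genes 4 were measured in this class, with 0 higher and 1 lower past the rule. Of all 4043 genes measured there, 8.21% passed it in either direction. In migrating neuron-like cells Smad6, an inhibitory SMAD and itself a BMP target, was lower, at 6.93 CPM in WT and 2.22 CPM in ShhN-IUE (log2 ratio -1.64), also past the rule. Of 12 inhibitors 9 were measured there, with 0 higher and 1 lower past the rule. On the lower side 0.913% of 10186 genes passed it. Of 6 other targets 2 were measured, with 1 higher and 0 lower past the rule. On the higher side 53 of the 10186 measured genes passed it.

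**Figure D5:**
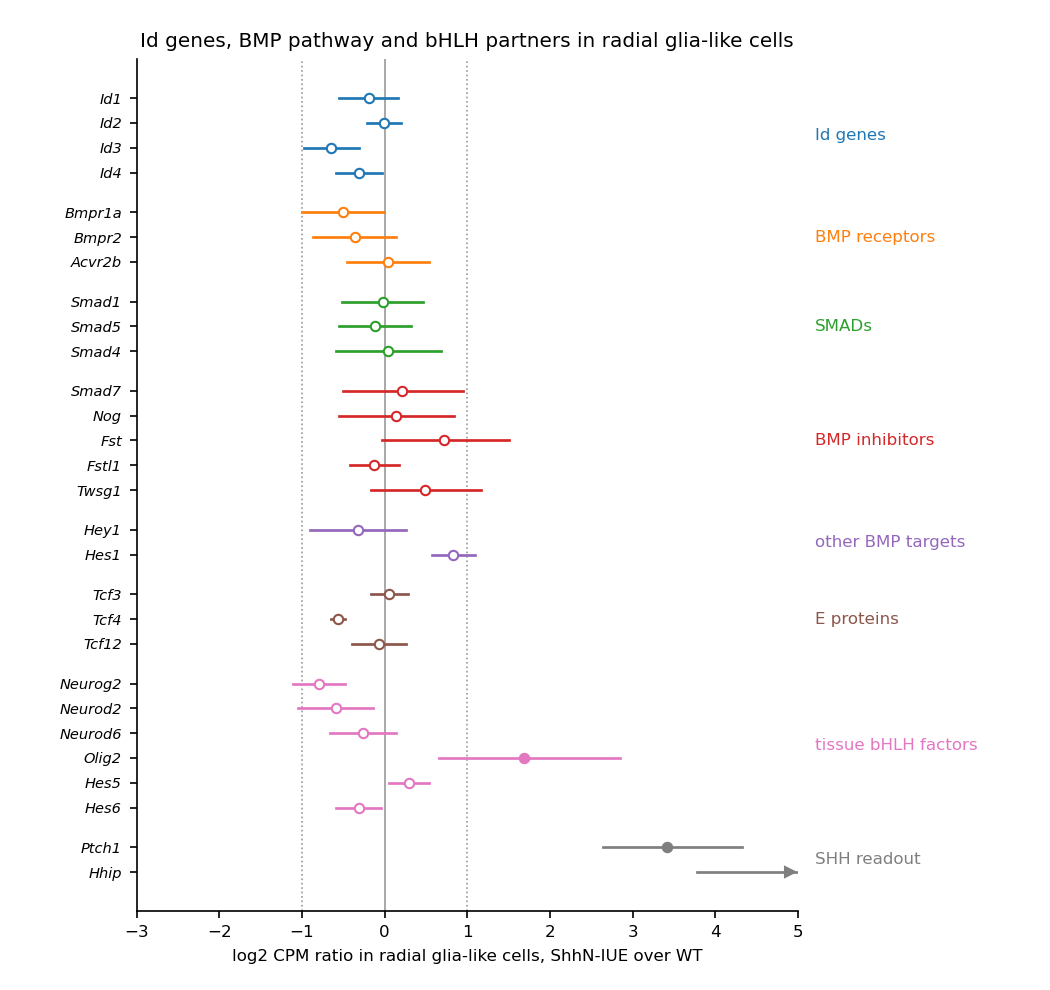
Log2 ratios of ShhN-IUE over WT in radial glia-like cells for a selection of BMP pathway genes, E proteins, tissue bHLH genes, hedgehog readout genes and the Id genes with at least 50 UMIs, with 95% counting intervals, an arrow for a gene with 0 UMIs in WT and filled points for genes past the rule of size. Olig2, at 1.68, is past the rule of size, and the 4 Id genes, from -0.64 to -0.01, are not.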

How the data were processed

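The deposited values are raw UMI counts per gene and barcode, 1 matrix per group, made by the authors with Cell Ranger on mm10, per the submitters' processing notes, which also list StringTie and Seurat 3. The matrices were matched to the groups by the control and experimental prefixes of their names. The Id genes and the gene lists were chosen with earlier results of these data known.

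Barcodes were kept from 2333 UMIs in WT and 2291 in ShhN-IUE (10% of the 99th percentile among the 3000 deepest barcodes), with 800 or more genes and at most 10% mitochondrial UMIs, and scrublet doublets (4.05% and 2.91%) removed. Cells were clustered with scanpy 1.11.5 and leidenalg 0.10.2 on 2000 variable genes, 30 components and 15 neighbours at resolution 1, without Id, hedgehog, globin, mitochondrial and sex-linked genes. Clusters were named from 18 fixed marker lists; the naming minimum, the second split of mixed clusters at resolution 0.5, the medial wall list and the limit of 5 Id3 UMIs were set after clusters or values were seen. Subplate-, microglia-, fibroblast- and choroid plexus-like cells were not named.

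UMIs were summed per class and library. CPM have exact Poisson intervals, shares Clopper-Pearson intervals and ratios exact conditional binomial intervals, all at 95% and for counting error only; a count of 0 allows up to 3 counts or the exact upper bound given. No p-values were computed. Named genes were the 4 Id genes, members of the fixed pathway lists and the 5 genes with the most similar profile to each Id gene; markers and the medial wall genes are named where they define cells. The rule of size was tested on simulated Poisson counts summed over a class, with no single cells in them. That test cannot show how the rule behaves where few cells hold most UMIs, as for Id3 in radial glia-like cells. The alternative scaling factors came from edgeR 4.0.16. Other alternatives changed the depth, mitochondrial and doublet filters, the clustering, the scaling, the removal of free RNA, thinning and the UMI minimum. Results that rest on some genes are not reported here.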

Additional observations from a re-analysis of the deposited data

Results flagged for a closer look

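Id4 log2 ratios had opposite signs between classes, and of the 3 classes named here only migrating neuron-like cells passed the rule of size. Its log2 ratio of ShhN-IUE over WT was 1.07 in caudal eminence interneuron-like cells, higher in ShhN-IUE, but -0.74 in intermediate progenitor-like cells and -1.21 in migrating neuron-like cells, lower in ShhN-IUE. The counting intervals of the first (0.26 to 1.91) and of the other two (-1.30 to -0.17 and -1.74 to -0.70) do not overlap. The difference between classes was not tested, since each group is 1 library, and the sign in caudal eminence interneuron-like cells changed in 2 of 9 processing alternatives.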

How the results depend on the processing

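No paired analysis was possible because the cells of each library cannot be traced to the 4 samples of its group, and for the same reason no sample could be left out in turn. Id3 in medial eminence interneuron-like cells was lower in ShhN-IUE in 10 of 10 other settings and passed the rule of size in 8; the exceptions left few cells, with log2 ratios of -3.19 in cells with at least 5000 UMIs (74 and 48 cells) and -3.49 after thinning. In radial glia-like cells, choosing cells by marker counts alone gave -0.31 for Id2, -1.70 for Id3 and -0.99 for Id4; Id3 passed the rule in 1 of 10 other settings. Over all cells Id3 was -0.81 in cells with at least 5000 UMIs, -1.36 as a mean of per cell CPM and -0.69 without medial eminence interneuron-like cells, an alternative chosen after seeing the data, and it passed in 4 of 10 other settings. Why these values moved was not tested. Genes past the rule in medial eminence interneuron-like cells numbered 39, against 7 with a minimum of 200 UMIs, 100 with none and 10 after thinning. In radial glia-like cells there were 73, against 18, 162 and 35, and in migrating neuron-like cells 146, against 65 with 200 UMIs. Trimmed mean scaling moved the log2 ratios of all genes of a class by 0.01 to 0.12.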
